A study of Mus musculus with 5 samples.

Results

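The comparison set β-catenin binding in mouse embryonic stem cells treated with CHIR99021 against binding in cells given DMSO, both captured with streptavidin. Its members were all deposited peaks of the 2 libraries, 15947 for CHIR99021 and 12734 for DMSO, which made 28681 of the 44750 peaks of the series. Each condition had 1 library. Both libraries came from the V6.5 ESC line with a Ctnnb1-Biotin-3xFLAG knock-in, in which the endogenous gene for β-catenin carries a FLAG epitope and a sequence that the bacterial ligase BirA biotinylates, so that streptavidin beads can pull down the protein. The extraction protocol gives the cells as Ctnnb1-BioFLneo;BirA. It also names BirA cells without the tag, and no peak list from such cells was used here. Cells of both conditions grew in serum and LIF on feeder cells, which were depleted by leaving the cells on gelatin and collecting those that floated, so the chromatin is described as enriched for stem cells and may hold some of feeder cells. The sample labels and the treatment protocol give CHIR99021 at 3 µM, the extraction protocol gives 3 mM, and the DMSO label also carries 3 µM. The treatment protocol gives 16 hours and the series text 24 hours. The other 3 samples of the series were an anti-FLAG ChIP from CHIR99021-treated cells, with 16069 peaks, and an input for each condition.

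β-Catenin is the transcriptional effector of canonical Wnt signalling. Without a Wnt signal, a cytoplasmic complex that contains the kinase GSK3 phosphorylates β-catenin and marks it for degradation. CHIR99021 inhibits GSK3, so β-catenin accumulates, enters the nucleus and binds chromatin through DNA-binding partners, foremost the TCF/LEF factors. In embryonic stem cells this pathway is known for its part in self-renewal and, under other culture conditions, in the onset of mesendoderm genes.

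The header of the CHIR99021 table gives 11934863 unique tags, while that of the DMSO table gives no total, so the DMSO depth is unknown. The MACS fragment shift was 214 bp for CHIR99021 and 30 bp for DMSO. A CHIR99021 peak had a median of 34 tags (13 to 7407) over a median of 926 bp, and a DMSO peak a median of 6 tags (6 to 6663) over a median of 74 bp. The condition, the shift, the MACS model fold and the input used for calling differed between the lists together. Their parts, and that of the unknown DMSO depth, cannot be told apart. The label and the aligned file named in the header give streptavidin or biotin for the DMSO library, but its run and table are named for FLAG. The label was followed, and the main relations are also given for the anti-FLAG list. All values below are raw tags per peak, with no correction for depth or input. With 1 library per condition there was no replicate error and no test. The interval given with each share is a 95% Clopper-Pearson interval, exact for a count of peaks, and covers counting error only. Classes of CHIR99021 or anti-FLAG tags, of tags per kb and of length include their lower limit and not their upper one. Peaks are named by mm9 coordinates.

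The first question was which CHIR99021 peaks also held a DMSO peak, that is, shared at least 1 bp with one. Over the whole list this was so for 1336 of 15947 peaks (8.38%, interval 7.95 to 8.82%), and a DMSO peak of 10 or more tags was held by 446 (2.80%). The share was higher in every step up in tag count. Of peaks with under 20 tags, 43 of 3384 held a DMSO peak (1.27%, 0.921 to 1.71%). Peaks of 20 to 50 tags held one in 3.92% of 7733 cases (3.50 to 4.37%), and peaks of 50 to 100 tags in 11.7% of 3368 (10.7 to 12.9%). Peaks of 100 to 200 tags did so in 32.1% of 1136 cases (29.4 to 34.9%). Of the 326 peaks with 200 or more tags, 230 held a DMSO peak (70.6%, 65.3 to 75.4%). No 2 of these 5 intervals overlapped. In order of tags, all of the first 10 peaks, 44 of the first 50, 84 of the first 100 and 485 of the first 1000 held one.

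Longer peaks also held a DMSO peak more often. The share was 1.35% of 740 peaks under 500 bp (0.650 to 2.47%), 3.71% of 8444 peaks of 500 to 1000 bp (3.31 to 4.13%) and 11.7% of 4629 peaks of 1000 to 1500 bp (10.8 to 12.7%). It was 19.6% of 1379 peaks of 1500 to 2000 bp (17.5 to 21.8%) and 26.6% of 755 peaks of 2000 bp or more (23.5 to 29.9%). Tags and length were closely tied, with a Spearman correlation of 0.88 over the 15947 peaks, and a longer interval can meet more DMSO peaks by its size alone. The 2 measures were therefore crossed.

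At equal tags, no class showed a share that was higher in longer peaks beyond the intervals, and among peaks of 100 to 200 tags longer peaks held a DMSO peak less often. There the share was 45.5% of 44 peaks of 500 to 1000 bp (30.4 to 61.2%) and 43.1% of 413 peaks of 1000 to 1500 bp (38.3 to 48.0%). It was 31.1% of 312 peaks of 1500 to 2000 bp (26.0 to 36.5%) and 19.1% of 367 peaks of 2000 bp or more (15.2 to 23.5%). Intervals of the shortest and the longest of these classes did not overlap. For 50 to 100 tags the shares lay between 9.48% and 13.1% over the same 4 length classes, and their intervals overlapped, with 1 shorter peak left out. For 20 to 50 tags they were 3.60% at 500 to 1000 bp, 4.52% at 1000 to 1500 bp and 7.21% of only 111 peaks at 1500 to 2000 bp, again with overlapping intervals. Among peaks of 200 or more tags the share was 63.6% of 11 peaks at 500 to 1000 bp (30.8 to 89.1%). At 1000 to 1500 bp it was 76.9% of 39 peaks (60.7 to 88.9%). It was 82.4% of 102 peaks at 1500 to 2000 bp (73.6 to 89.2%) and 62.6% of 174 peaks at 2000 bp or more (55.0 to 69.8%). The shares of this class thus had no steady order by length.

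**Figure D1:**
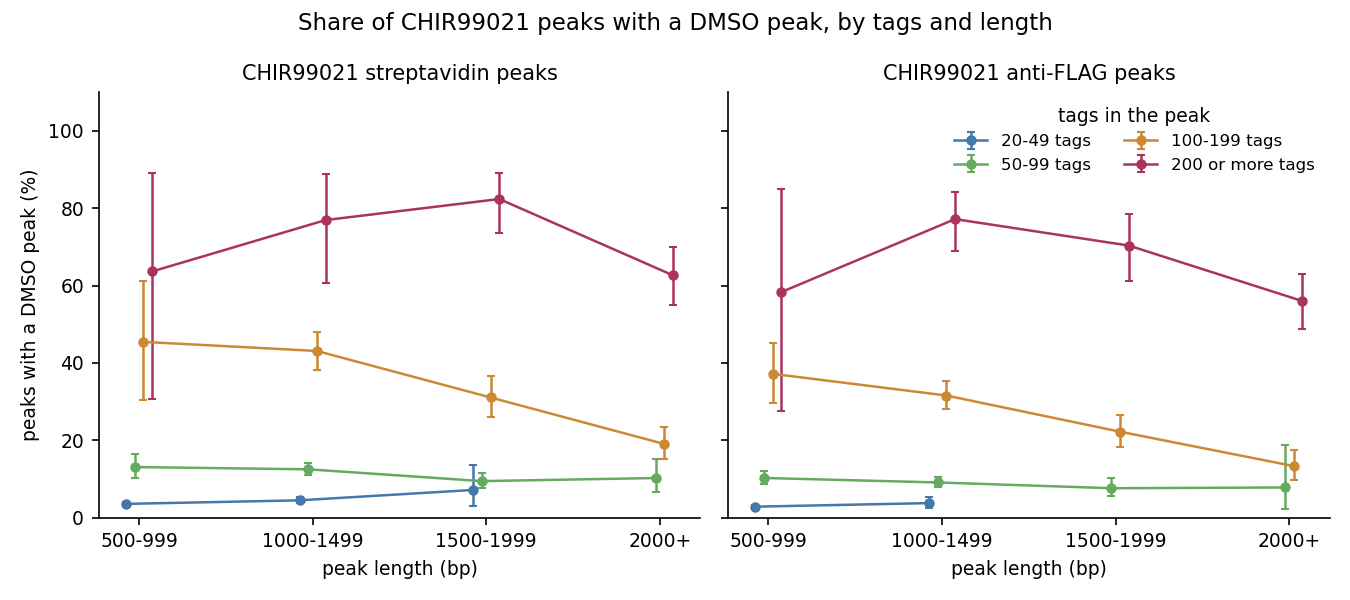
Share of CHIR99021 peaks that held a DMSO peak (y axis, percent) by peak length in bp (x axis), with 1 line for each class of tags in the peak, for the streptavidin list (left) and the anti-FLAG list (right). Bars are 95% exact intervals over peaks and classes with under 10 peaks are left out; the lines are ordered by tags, and that of 100 to 200 tags slopes down with length, from 45.5% to 19.1% on the left.

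For 100 to 200 tags the same order by length was seen with anti-FLAG, a separate library from CHIR99021-treated cells that did not enter the comparison. Of anti-FLAG peaks of 100 to 200 tags, 37.2% of 164 held a DMSO peak at 500 to 1000 bp (29.8 to 45.1%), 31.6% of 652 at 1000 to 1500 bp (28.0 to 35.3%), 22.2% of 409 at 1500 to 2000 bp (18.3 to 26.6%) and 13.4% of 329 at 2000 bp or more (9.89 to 17.5%). For anti-FLAG peaks of 200 or more tags the share was 58.3% of 12 at 500 to 1000 bp (27.7 to 84.8%) and 77.2% of 127 at 1000 to 1500 bp (68.9 to 84.1%). It was 70.3% of 118 at 1500 to 2000 bp (61.2 to 78.4%) and 56.0% of 200 at 2000 bp or more (48.8 to 63.0%). By tags alone, anti-FLAG peaks went from 0.813% of 2338 under 20 tags (0.490 to 1.27%) to 65.6% of 457 with 200 or more (61.1 to 70.0%), against 8.24% of the whole anti-FLAG list. These shares rest on the same DMSO peaks as those above and are no repeat of the DMSO library.

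Tags per kb of peak length, a measure added after these values were seen, put both results on 1 scale. A DMSO peak was held by 2.93% of 10009 CHIR99021 streptavidin peaks with 20 to 40 tags per kb (2.61 to 3.28%) and by 8.50% of 3812 with 40 to 60 (7.63 to 9.43%). It was held by 23.3% of 1552 with 60 to 100 (21.2 to 25.5%), 59.9% of 519 with 100 to 200 (55.6 to 64.2%) and 83.3% of 54 with 200 or more (70.7 to 92.1%). Among the peaks of 100 to 200 tags, the share went from 12.9% of 271 at 40 to 60 tags per kb (9.16 to 17.5%) to 51.9% of 295 at 100 to 200 tags per kb (46.0 to 57.7%). Peaks whose tags lay close together thus held a DMSO peak more often than peaks with as many tags spread over a longer stretch. At equal tags per kb, where a longer peak has more tags, the order by length was the opposite. At 60 to 100 tags per kb the share was 11.8% of 424 peaks of 500 to 1000 bp (8.88 to 15.3%) and 41.9% of 179 peaks of 2000 bp or more (34.6 to 49.5%). The 1336 peaks with a DMSO peak had a median of 89 tags, 1278 bp and 63.6 tags per kb. The 14611 without one had a median of 32 tags, 901 bp and 34.2 tags per kb. The quartiles of tags were 48 and 159 with a DMSO peak, and 20 and 51 without, so the groups overlapped.

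The CHIR99021 streptavidin peaks with the most tags fell into separate kinds by their DMSO tags. The first, on chromosome 1 (24618181 to 24623212), held 7407 CHIR99021 tags and 6807 DMSO tags in 2 DMSO peaks, and no anti-FLAG peak lay there. The next, on chromosome 17 (44740356 to 44743044), held 3111 CHIR99021 tags, 3073 DMSO tags and 2435 anti-FLAG tags. Its neighbour on chromosome 17 (44744728 to 44747810) had 729, 680 and 541, in that order. That on chromosome 10 (95539852 to 95541026) held 676 CHIR99021 tags and 664 DMSO tags, again with no anti-FLAG peak. In these 4 peaks the DMSO tags came to between 91.9% and 98.8% of the CHIR99021 tags.

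The other 6 of the first 10 had DMSO tags at 5.94% to 15.5% of their CHIR99021 tags. On chromosome 9 (94559442 to 94563343), 1207 CHIR99021 tags stood beside 1223 anti-FLAG tags and 141 DMSO tags. On chromosome 9 (69514870 to 69519669) the values were 912, 959 and 100, and on chromosome 11 (97521750 to 97524728) they were 804, 809 and 125. The peak on chromosome 1 (37040377 to 37045978) had 690, 716 and 41, that on chromosome 7 (6209639 to 6212323) had 617, 726 and 65, and that on chromosome 1 (91830159 to 91834310) had 581, 564 and 47. In all 6 the streptavidin and anti-FLAG tags were of like number, while the DMSO tags were fewer.

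The strongest peak without any DMSO peak ranked 17th by tags. It lay on chromosome 9 (110847636 to 110852126), with 512 streptavidin and 507 anti-FLAG tags, and the nearest DMSO peak was 129968 bp away. The next lay on chromosome 18 (61193922 to 61196763), with 481 and 471 tags and a DMSO peak of 9 tags at 28158 bp. On chromosome 11 (108781022 to 108785289) there were 465 and 374 tags, and the nearest DMSO peak lay at 220026 bp. The peak on chromosome 2 (98506218 to 98507868) had 409 streptavidin tags but no anti-FLAG peak. The other 6 had 363 to 396 streptavidin tags and 357 to 470 anti-FLAG tags. The one on chromosome 5 (123583275 to 123589477) had a DMSO peak of 8 tags at 2246 bp. That on chromosome 8 (37610507 to 37613952) came closest to a DMSO peak, which had 13 tags and lay 867 bp from its edge. Those at 5311170 to 5314325 (chromosome 11), 25026495 to 25029737 (chromosome 18), 154251555 to 154254580 (chromosome 2) and 61214815 to 61221202 (chromosome 9) had their nearest DMSO peak at 25363 to 153025 bp. The 10 peaks without a DMSO peak had a median of 3344.5 bp and 115 tags per kb, against 3492.5 bp and 253 tags per kb for the 10 with one. The 2 sets were not matched in tags, with 363 to 512 without a DMSO peak and 581 to 7407 with one. The set with one also includes the 4 peaks whose DMSO tags nearly equalled their CHIR99021 tags. A peak without a DMSO peak is one without a call, and the unknown depth gives no limit on binding there.

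**Figure D2:**
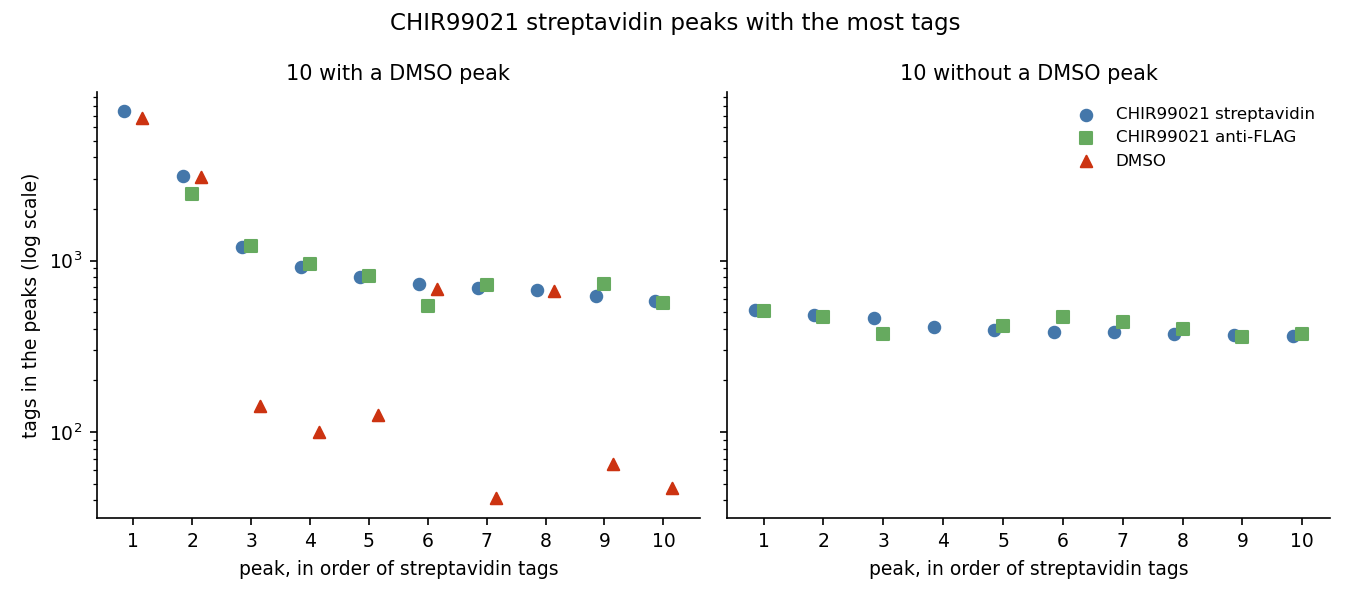
Tags (y axis, log scale) of the 10 CHIR99021 streptavidin peaks with the most tags among those with a DMSO peak (left) and those without (right), in order of streptavidin tags (x axis), with the summed tags of overlapping anti-FLAG and DMSO peaks. Symbols at 0 are not drawn; on the left DMSO tags nearly equal CHIR99021 tags in peaks 1, 2, 6 and 8, and lie well below them in the other 6.

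The 5 longest peaks with a DMSO peak ranged widely, from 44.7 to 1472 tags per kb and from 8 to 6807 DMSO tags. The longest of all, on chromosome 19 (5840136 to 5848096), covered 7961 bp with 356 CHIR99021 tags, or 44.7 per kb, and held 1 DMSO peak of 10 tags. That on chromosome 9 (62673192 to 62678414) had 303 tags over 5223 bp and 1 DMSO peak of 8 tags. The longest without a DMSO peak, on chromosome 8 (87182825 to 87189728), covered 6904 bp with 303 tags, or 43.9 per kb. The other 4 of the 5 longest without one had 192 to 396 tags and 37.0 to 72.5 tags per kb. Besides the peaks on chromosomes 9 and 5 already named, they were 62416803 to 62421988 on chromosome 11, with 192 tags, and 35024164 to 35029016 on chromosome 8, with 352. Of the 5 longest with a DMSO peak, that on chromosome 13 (53327786 to 53332729) had 432 CHIR99021 tags and 47 DMSO tags in 2 peaks. The other 2, both on chromosome 1, are among the first 10 by tags. They covered 5602 bp with 41 DMSO tags and 123 CHIR99021 tags per kb, and 5032 bp with 6807 DMSO tags and 1472 CHIR99021 tags per kb.

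CHIR99021 peaks that held more DMSO peaks mostly had more tags, with the 12 peaks of 4 DMSO peaks as an exception. Of the 1336 peaks, 1030 held 1 DMSO peak, 241 held 2, 50 held 3, 12 held 4 and 3 held 5. Peaks with 2 or more made up 1.92% of the list. Median CHIR99021 tags were 74 for peaks with 1 DMSO peak, 157 with 2, 268.5 with 3, 202.5 with 4 and 408 with 5, and median tags per kb were 55.0, 95.6, 129, 146 and 155. Their median lengths of 1216, 1481, 1736, 1717 and 2627 bp varied less in proportion than the tags. The first of the 3 peaks with 5, on chromosome 2 (44379283 to 44382507), held 527 CHIR99021 and 70 DMSO tags. The one on chromosome 7 (65479527 to 65481990) held 252 and 44, and that on chromosome 1 (191653915 to 191656541) held 408 and 39. The peak on chromosome 10 (21548135 to 21550341), with 318 CHIR99021 tags, held 4 DMSO peaks of 25, 16, 9 and 12 tags.

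Summed DMSO tags were mostly small. They came to 6 to 9 in 775 of the 1336 peaks, to 10 to 19 in 332, to 20 to 49 in 191, to 50 to 99 in 24 and to 100 or more in 14. In 388 peaks the only DMSO peak held 6 tags, the smallest number in the list. The median summed DMSO tags were 6 for CHIR99021 peaks under 20 tags and for those of 20 to 50 tags, 8 for 50 to 100, 10 for 100 to 200 and 23 for 200 or more (quartiles 14 and 41). As a share of the CHIR99021 tags in the same peak, the medians were 11.1% for 50 to 100 tags, 8.04% for 100 to 200 and 8.21% for 200 or more. The floor of 6 DMSO tags limits how low this share can be, the more so the fewer the CHIR99021 tags, and the lower quartile of DMSO tags was at the floor in the class of 50 to 100 tags. No order of the classes is read from these shares. Over the 1336 peaks, summed DMSO tags had a Spearman correlation of 0.59 with CHIR99021 tags, 0.57 with tags per kb and 0.36 with length. Within classes the relation to tags was weaker. The Spearman correlation with tags was 0.03 under 20 tags (n = 43), 0.25 for 20 to 50 tags (n = 303), 0.08 for 50 to 100 (n = 395), 0.33 for 100 to 200 (n = 365) and 0.52 for 200 or more (n = 230). That with length lay between -0.13 and 0.04 in the 5 classes. These are descriptions over peaks of 2 libraries, and peaks below the DMSO floor are not in them.

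Some peaks stood far above this relation, with DMSO tags over 50% of the CHIR99021 tags, a limit set after the values were seen. Among the 230 peaks with a DMSO peak and 200 or more CHIR99021 tags there were 7, at 84.6% to 98.8%. The other 223 lay between 1.93% and 25.2%, with a median of 7.94%, so nothing lay between 25.2% and 84.6%. Of the 7, 4 are the peaks on chromosomes 1, 17 and 10 named above. The other 3 lay on chromosome 6 (79767895 to 79768779), with 337 CHIR99021 and 331 DMSO tags, on chromosome 12 (98299489 to 98300192), with 259 and 219, and on chromosome 2 (69193404 to 69193916), with 218 and 213. The 7 peaks held 39.9% of all DMSO tags found in CHIR99021 streptavidin peaks. In the anti-FLAG list, which did not enter this choice, 2 of the 7 had a peak, both on chromosome 17, against 223 of the other 223. Without the 7, the Spearman correlation of tags with DMSO tags was 0.58 and the share of peaks of 200 or more tags with a DMSO peak was 69.9% (64.5 to 74.9%).

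A second set lay lower in tags. Among peaks of 50 to 200 CHIR99021 tags, 10 had DMSO tags over 50% of the CHIR99021 tags, and 10 of these 10 held an anti-FLAG peak. This is near the share of all peaks with a DMSO peak at these tags. It was 91.1% of 395 for 50 to 100 tags and 98.9% of 365 for 100 to 200. In the 10 peaks the anti-FLAG tags were 1.02 to 4.82 times the streptavidin tags, with a median of 3.22. The median over all 9216 streptavidin peaks with an anti-FLAG peak was 1.19. The choice itself favours peaks with few streptavidin tags, which are also the divisor of this ratio, so the ratio is a description of the set only. On chromosome 4 (150978239 to 150979550), 89 streptavidin tags stood beside 386 anti-FLAG and 114 DMSO tags. On chromosome 9 (21754372 to 21755436) the values were 73, 352 and 85, on chromosome 15 (72398758 to 72399362) they were 100, 252 and 122, and on chromosome 19 (4988770 to 4989569) they were 93, 259 and 114. DMSO tags exceeded the CHIR99021 streptavidin tags in these 4. Anti-FLAG tags, from a library of 16100920 unique tags, exceeded the DMSO tags in all 4.

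Among peaks under the median of 34 CHIR99021 tags, the most DMSO tags lay on chromosome 5 (33780757 to 33781406), with 28 CHIR99021 streptavidin, 30 DMSO and 106 anti-FLAG tags. On chromosome 2 (32873511 to 32873951) the values were 17, 25 and 139, and on chromosome 15 (73906109 to 73906982) they were 29, 24 and 78. The next 2, on chromosome 11 (102017387 to 102018099) and chromosome 7 (74933693 to 74934055), had 31 and 16 CHIR99021 tags, 17 and 16 DMSO tags and no anti-FLAG peak. In 3 of these 5 the anti-FLAG tags thus exceeded both others. The choice of peaks with few streptavidin tags favours this order. Among peaks with a DMSO peak, median streptavidin tags were 16 under 20 tags and 36 for 20 to 50. The medians of anti-FLAG tags, where such a peak was held, were 26.5 and 47. The ratio of anti-FLAG to streptavidin tags was also related to DMSO peaks over the list, after the values were seen. Of peaks with 100 or more anti-FLAG tags, 20.2% of 168 with a ratio of 2 or more held a DMSO peak (14.4 to 27.1%), against 35.7% of 1827 with a lower ratio (33.5 to 38.0%). The former had a median of 51 streptavidin tags and the latter of 122. At equal streptavidin tags this order was not seen. Among peaks of 50 to 100 streptavidin tags, a DMSO peak was held by 12.2% of 1269 with a ratio of 0.8 to 1.2 (10.5 to 14.1%) and by 22.4% of 76 with a ratio of 2 or more (13.6 to 33.4%). Among peaks of 20 to 50 tags these shares were 4.01% of 1646 (3.11 to 5.07%) and 6.67% of 345 (4.27 to 9.84%). For 100 to 200 tags they were 33.4% of 605 (29.6 to 37.3%) and 43.8% of 16 (19.8 to 70.1%), with 5 of 25 at a ratio of 1.6 to 2 (6.83 to 40.7%). The intervals of these 2 ratios, 0.8 to 1.2 and 2 or more, overlapped in all 3 classes. Peaks with a ratio under 0.8 had the lowest share in each class. In order of tags it was 2.65% of 378, 10.3% of 300 and 16.0% of 81. Only at 100 to 200 tags did its interval (8.83 to 25.9%) lie below those of other ratios, 0.8 to 1.2 and 1.2 to 1.6. No direction over the whole range of ratios is read from these shares. The part of the uncertain capture name of the DMSO library in this was not tested.

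**Figure D3:**
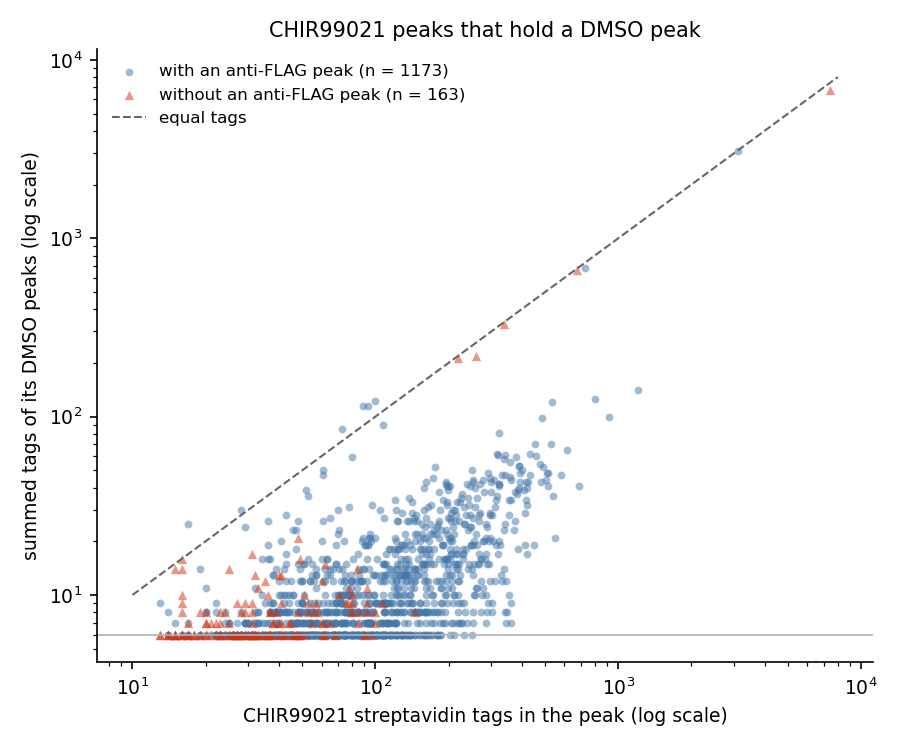
CHIR99021 streptavidin tags (x axis, log scale) and summed DMSO tags (y axis, log scale) of the 1336 CHIR99021 peaks with a DMSO peak, with circles for those that held an anti-FLAG peak (1173) and triangles for those that did not (163). The dashed line marks equal tags and the grey line the floor of 6 DMSO tags. Most points form a cloud below the dashed line, nearest to it at few CHIR99021 tags. Along the line lie 7 points of 200 or more CHIR99021 tags. A few circles near 100 CHIR99021 tags lie on or above it, as do points at 28, 17 and 16 tags, the last a triangle.

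DMSO peaks inside CHIR99021 peaks lay close to the CHIR99021 summit, the position of highest tag pile-up. Over the 1725 DMSO peaks, the summits were a median of 103 bp apart (quartiles 50 and 185). Within 250 bp of the CHIR99021 summit lay 1427 of them (82.7%, 80.9 to 84.5%), although this window made up 34.8% of the length of the peaks concerned. In CHIR99021 peaks of 2000 bp or more the window made up 18.7% of the length and held 70.0% of 320 DMSO peaks (64.7 to 75.0%). Of DMSO peaks of 10 or more tags, 503 of 547 lay within it (92.0%, 89.4 to 94.1%), and of those of 6 tags 396 of 537 (73.7%, 69.8 to 77.4%).

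Where a CHIR99021 peak held exactly 2 DMSO peaks, these were close neighbours. Their summits lay a median of 170 bp apart over the 241 cases (quartiles 116 and 248), and under 300 bp apart in 205. The CHIR99021 summit lay between them in 141 of 241 (58.5%, 52.0 to 64.8%). Over all 241 cases the left DMSO summit lay at a median of -92 bp from the CHIR99021 summit and the right one at 95 bp. Of all DMSO peaks inside CHIR99021 peaks, 34.9% of 1725 had another DMSO summit within 300 bp (32.6 to 37.2%), against 4.21% of 11009 outside (3.85 to 4.61%). The DMSO fragment shift of 30 bp is smaller than this spacing, and its part in the spacing was not tested.

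The density of DMSO peaks dropped at the edge of CHIR99021 peaks. Inside there were 1716 DMSO summits over 16.5 Mb, or 104 per Mb, and in the first kb outside 7.80 per Mb (6.84 to 8.85), a ratio of 13.3. At 1 to 5 kb the density was 6.86 per Mb, at 5 to 10 kb 6.60 and beyond 10 kb 4.00. The contrast depended on the tags of the DMSO peak. For DMSO peaks of 6 tags the density was 32.3 per Mb inside and 5.52 in the first kb outside, a ratio of 5.85. For those of 10 or more tags it was 33.0 and 0.357 per Mb (0.178 to 0.639), a ratio of 92.3 from 545 summits inside and 11 in the first kb.

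**Figure D4:**
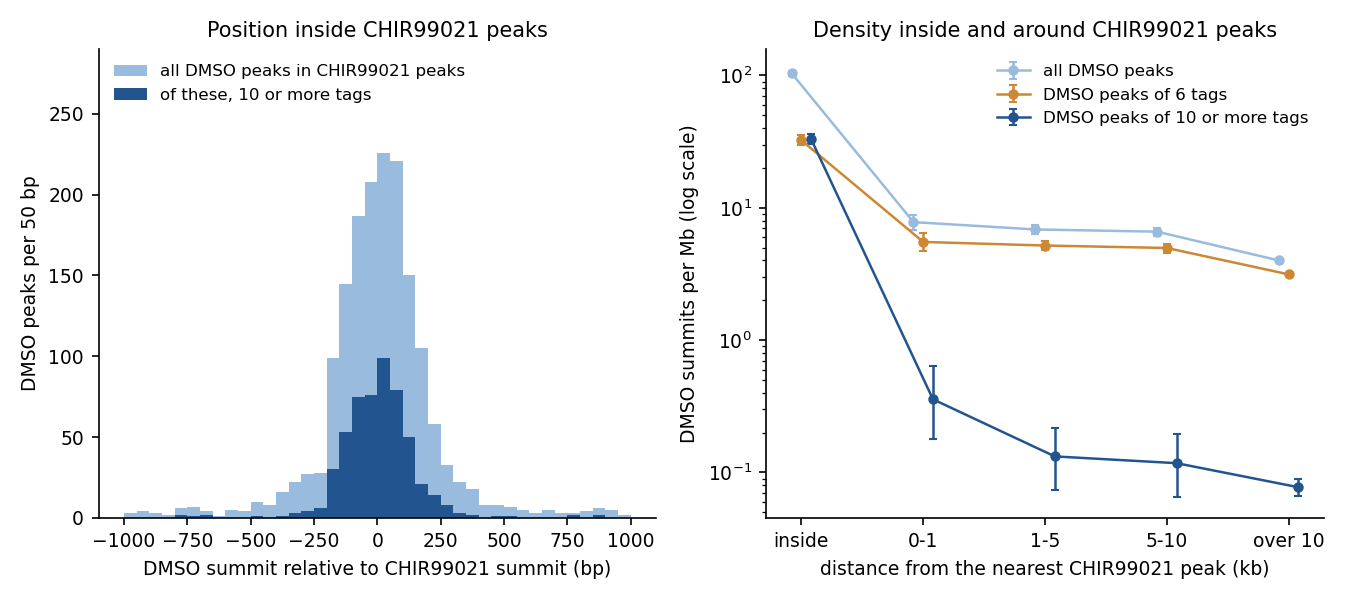
Left: number of DMSO peaks per 50 bp (y axis) by the distance of their summit from the summit of the CHIR99021 peak that holds them (x axis, bp), for all and for those of 10 or more tags. Right: DMSO summits per Mb (y axis, log scale) inside CHIR99021 streptavidin peaks and by distance from the nearest one (x axis, kb), with 95% exact Poisson intervals; the density of DMSO peaks of 10 or more tags drops from 33.0 inside to 0.357 per Mb in the first kb.

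Seen from the DMSO list, CHIR99021 streptavidin peaks covered 1725 of 12734 peaks (13.5%) by at least 1 bp. This held for 5.91% of 9083 DMSO peaks of 6 tags (5.44 to 6.42%), 22.5% of 2852 of 7 to 9 tags (21.0 to 24.1%) and 59.9% of 504 of 10 to 14 tags (55.5 to 64.2%). It was 87.2% of 109 of 15 to 19 tags (79.4 to 92.8%), 85.9% of 142 of 20 to 49 tags (79.1 to 91.2%) and 63.6% of 44 of 50 or more (47.8 to 77.6%). DMSO peaks inside had a median of 84 bp and 8 tags, and those outside 73 bp and 6 tags. At equal tags the median lengths were closer, with 69 bp inside and 71 bp outside for peaks of 6 tags and 109 and 100 bp for 10 to 14 tags, while for 50 or more tags they were 405 and 624 bp. Of the 799 DMSO peaks with 10 or more tags, 530 lay in both a streptavidin and an anti-FLAG peak of CHIR99021-treated cells, 17 in a streptavidin peak alone, 23 in an anti-FLAG peak alone and 229 in neither.

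CHIR99021 streptavidin peaks that held a DMSO peak were also found by anti-FLAG more often. In the whole list 57.8% of peaks held an anti-FLAG peak. With a DMSO peak it was 1173 of 1336 (87.8%, 85.9 to 89.5%), and without 8043 of 14611 (55.0%, 54.2 to 55.9%). The gap was smaller within classes of tags. For 20 to 50 tags the shares were 70.3% of 303 with a DMSO peak (64.8 to 75.4%) and 56.9% of 7430 without (55.7 to 58.0%). For 50 to 100 tags they were 91.1% (87.9 to 93.8%) and 81.1% (79.6 to 82.5%), and for 100 to 200 tags 98.9% (97.2 to 99.7%) and 94.2% (92.3 to 95.7%). For 200 or more tags they were 97.8% of 230 (95.0 to 99.3%) and 92.7% of 96 (85.6 to 97.0%), with overlapping intervals. The 5 peaks of the first kind that lacked anti-FLAG are among the 7 described above. Tags were not equal inside these classes. Median CHIR99021 tags with and without a DMSO peak were 36 and 31 for 20 to 50 tags, and 72 and 64 for 50 to 100. They were 136 and 123 for 100 to 200 tags, and 277 and 240 for 200 or more. The part of these differences in the remaining gap was not tested.

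Between chromosomes the share with a DMSO peak ranged from 6.15% to 11.2%. It was lowest on chromosome 7, with 53 of 862 peaks (6.15%, 4.64 to 7.97%), and highest on chromosome 9, with 115 of 1024 (11.2%, 9.36 to 13.3%). Chromosomes 8 and 9, which held the most DMSO peaks of any (1336 and 1286), together reached 10.8% of 1953 (9.41 to 12.2%), against 8.06% of 13534 on the other 17 autosomes (7.61 to 8.53%). Their CHIR99021 peaks also had more tags, with medians of 43 and 41 against 29 to 36 on the other autosomes. At equal tags the order was mixed. For 20 to 50 tags the share was 5.54% of 812 on chromosomes 8 and 9 (4.07 to 7.35%) and 3.73% of 6921 elsewhere (3.29 to 4.20%), higher on these 2 with overlapping intervals. For 200 or more tags the share was 62.7% of 75 on chromosomes 8 and 9 (50.7 to 73.6%) and 72.9% of 251 elsewhere (67.0 to 78.3%), and for 50 to 100 tags 8.65% of 520 (6.38 to 11.4%) and 12.3% of 2848 (11.1 to 13.6%), both lower on these 2 with overlapping intervals. On chromosome X 35 of 460 peaks held a DMSO peak (7.61%, 5.36 to 10.4%), while 46 of its 116 DMSO peaks (39.7%) lay in a CHIR99021 peak.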

How the data were processed

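β-Catenin ChIP-seq was represented by 3 deposited peak lists, 1 library each. Per the file headers, the authors called peaks with MACS (version not given in the sources used here) against 1 input, with a p cutoff of 1.00e-05, a tag size of 25, a band width of 300 and a model fold of 32 (CHIR99021 streptavidin) or 20 (the other lists). The build is mm9, per the submitters' processing notes. The deposited tags are raw counts per peak; the authors' fold, p and FDR columns were not used. Unique tags per the headers were 11934863 (CHIR99021 streptavidin) and 16100920 (anti-FLAG), with no total for DMSO.

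From these lists, 2 peaks counted as shared where they overlapped by 1 bp or more, and densities were counted by DMSO summit. Shares have 95% Clopper-Pearson intervals and densities exact Poisson intervals (scipy 1.17.1 under Python 3.11.15, with pandas 2.3.3 for tables, numpy 2.4.6 for arrays and matplotlib 3.10.9 for plots). The overlap code was tested on simulated intervals. No test across samples was possible, and cell number and binding per cell cannot be told apart in bulk chromatin.

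Peaks named were the 10 with the most tags with and without a DMSO peak, the 5 with the most DMSO peaks, the 5 longest with and without one, and the 5 with the most DMSO tags below the median of CHIR99021 tags. Others were chosen after their values were seen, as were the tags-per-kb classes and the comparison of chromosomes 8 and 9. Members and classes were chosen with earlier results of these data known. A genome or annotation of mm9 was not used here, so no genes were assigned and no sequences are shown. Alternatives changed the overlap rule, the tag minimum, the DMSO intervals, the chromosomes and the CHIR99021 list.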

Additional observations from a re-analysis of the deposited data

How the results depend on the processing

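Of 53 alternative values, 30 stayed the same and 23 moved. A share or density stayed the same within its counting interval, and a count within 1.5 times. Spearman correlations and medians had to be nearly equal. A change of direction was not scored. Asking for DMSO peaks of at least 10 tags, which removes most of that list, moved the share of CHIR99021 peaks with a DMSO peak from 8.38% to 2.80%. Under that rule it was 54.9% for 200 or more tags, 0.0887% under 20 tags, 14.8% for 2000 bp or more and 0.270% under 500 bp. For 100 to 200 tags it was 20.5% at 500 to 1000 bp and 6.54% at 2000 bp or more. Peaks with 2 or more DMSO peaks went from 306 to 84, the Spearman correlation of tags with DMSO tags from 0.59 to 0.48, and the densities to 33.0 per Mb inside and 0.357 in the first kb. Median CHIR99021 tags were then 167 with and 33 without a DMSO peak. Anti-FLAG peaks were found at 90.6% of peaks of 20 to 50 tags with one, from only 32 such peaks against 303 in the main setting.

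Counting DMSO peaks within 250 bp of the summit gave 7.36% for the whole list, 21.3% for 2000 bp or more and 13.6% for 100 to 200 tags at that length. Edges within 500 bp gave 9.14%, and CHIR99021 peaks of at least 20 tags 10.3%. In the anti-FLAG list the share was 0.813% under 20 tags and 13.4% for 100 to 200 tags at 2000 bp or more, and median tags were 106 with and 37 without a DMSO peak. At 100 to 200 tags, the share was lower at 2000 bp or more than at 500 to 1000 bp under each of the 4 settings run for it, of which leaving out chromosomes 8 and 9 was chosen after seeing the data.

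No paired analysis was possible because each condition had 1 library and the labels carry no replicate numbers. The unknown DMSO depth limits every share: a missing DMSO peak is a missing call, and the peaks near the floor of 6 tags are the least certain.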

Other observations

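Among the 44 DMSO peaks of 50 or more tags, 16 lay outside CHIR99021 streptavidin peaks, and 0 of these 16 lay in an anti-FLAG peak. Over all tag counts, 182 of the 11009 DMSO peaks outside streptavidin peaks lay in an anti-FLAG peak, but 8546 of the 11009 had only 6 tags. Of the 252 with 10 or more tags, 23 lay in one. Of DMSO peaks of 20 or more tags, 2 lay in an anti-FLAG peak alone and 34 in neither list. The 16 were on chromosome Y (7), chromosome 11 (4), chromosome 2 (2) and chromosomes 1, 4 and 9 (1 each). The highest, on chromosome 4 (79649062 to 79650995), held 2664 tags. The 4 on chromosome 11 lay between 3052289 and 3077701 and held 118 to 174 tags. No CHIR99021 streptavidin peak was called at any of these positions, and CHIR99021 tags outside called peaks were not counted. The CHIR99021 streptavidin list had no peak anywhere on chromosome Y.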
